A study of Mus musculus with 24 samples.

Results

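The 9 genes described here are markers of GABAergic neurons, the inhibitory neurons of the cortex. They were chosen by name as 9 of the 55414 genes in the count table, and all 9 were among the 14464 genes tested. They comprise the genes for GABA synthesis and packaging (Gad1, Gad2, Slc32a1) and for classes of interneurons (Pvalb, Lamp5, Sncg, Ndnf, Reln, Adarb2). RNA was sequenced from the visual cortex of 24 male C57BL/6J mice aged 8 to 10 weeks, 6 in each of 4 groups, with 1 library per mouse. All mice had been housed in a reversed light cycle and were taken during its dark phase. The dark group stayed in the dark, the light group was placed in light, the psilocybin-dark group received 5 mg/kg psilocybin and stayed in the dark, and the psilocybin-light group received the same dose and was placed in light. Psilocybin, which is converted in the body to an agonist of serotonin receptors, was injected intraperitoneally. The dark and light groups, headed PBS in the study's count table, were given the vehicle, phosphate-buffered saline, in its place. Brains were dissected 2.5 h later. The comparisons address how light, psilocybin and their combination changed the expression of these genes. Libraries were assigned to groups by the headings in the study's supplementary count table. The sample labels give the same drug but the opposite light exposure for all 24 libraries, and under those labels the light and dark names below change places, as do psilocybin-light and psilocybin-dark. Each mouse is called by its group and the number of its library.

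GABA is made from glutamate by the glutamate decarboxylases and loaded into synaptic vesicles by a dedicated transporter, so the genes for these steps mark nearly all cortical inhibitory neurons. The inhibitory neurons fall into classes with different targets: Pvalb cells fire fast and contact cell bodies, whereas Lamp5, Ndnf and Reln mark cells that include the neurogliaform cells of the superficial layers. Sncg marks a class of cholecystokinin-containing cells, and Adarb2 marks the classes that arise from the caudal ganglionic eminence. Several of these genes are also used by other cells. Lamp5 is found in excitatory neurons of the upper cortical layers, Pvalb in Purkinje cells and molecular layer interneurons of the cerebellum, and Reln in Cajal-Retzius cells and in cerebellar granule cells. In RNA from whole tissue, fewer cells of a type and less RNA per cell cannot be told apart.

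In the GENCODE annotation of GRCm39, all 9 genes are protein coding. Of the 9, 4 lie on chromosome 2, namely Gad1 (70383416 to 70432372), Gad2 (22511862 to 22583886), Slc32a1 (158452605 to 158464883) and Lamp5 (135894159 to 135911924), all on the plus strand. Pvalb lies on chromosome 15 (78075314 to 78091149, minus strand), Sncg on chromosome 14 (34092231 to 34100539, minus), Ndnf on chromosome 6 (65648574 to 65689310, plus), Reln on chromosome 5 (22089452 to 22549700, minus) and Adarb2 on chromosome 13 (8252897 to 8818800, plus). The strand setting of the read counting was not given in the sources used here, so reads from exons shared with a gene on the other strand cannot be assigned with certainty. Such overlap amounts to 99 bases for Gad1 (with Gad1os), 697 and 302 bases for Slc32a1 (with Gm14205 and Gm14204), 314 bases for Sncg (with the endothelial gene Mmrn2), and 554 and 564 bases for Reln (with Gm10475 and Gm71486).

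The promoters of 4 genes are shown because their RNA took different courses below: Lamp5 was higher than in the dark group in every comparison with it, Gad2 and Reln were lower, and Gad1 did not pass the test. Each is the 250 bases before a RefSeq transcription start in GRCm38.p6, in the direction of transcription, and Lamp5 has a further start in that table. Capitals mark matches, on either strand, to the letters of an element bound by activity-regulated or basal factors.
Lamp5, chr2:136052089-136052338, plus strand: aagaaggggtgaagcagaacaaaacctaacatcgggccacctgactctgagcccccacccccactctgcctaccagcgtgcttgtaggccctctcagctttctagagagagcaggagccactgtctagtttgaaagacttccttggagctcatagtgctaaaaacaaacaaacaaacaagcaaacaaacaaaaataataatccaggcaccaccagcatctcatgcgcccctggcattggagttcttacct
Gad1, chr2:70561879-70562128, plus strand: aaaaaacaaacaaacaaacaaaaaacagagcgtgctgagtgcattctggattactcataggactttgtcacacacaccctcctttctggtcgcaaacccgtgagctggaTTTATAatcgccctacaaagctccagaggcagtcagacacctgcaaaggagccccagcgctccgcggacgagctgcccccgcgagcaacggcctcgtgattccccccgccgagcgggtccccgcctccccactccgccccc
Gad2, chr2:22622077-22622326, plus strand: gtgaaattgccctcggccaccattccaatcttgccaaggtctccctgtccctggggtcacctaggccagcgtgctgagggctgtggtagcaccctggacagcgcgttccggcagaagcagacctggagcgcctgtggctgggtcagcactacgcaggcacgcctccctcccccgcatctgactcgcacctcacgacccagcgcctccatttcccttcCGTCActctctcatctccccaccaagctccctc
Reln, chr5:22344706-22344955, minus strand: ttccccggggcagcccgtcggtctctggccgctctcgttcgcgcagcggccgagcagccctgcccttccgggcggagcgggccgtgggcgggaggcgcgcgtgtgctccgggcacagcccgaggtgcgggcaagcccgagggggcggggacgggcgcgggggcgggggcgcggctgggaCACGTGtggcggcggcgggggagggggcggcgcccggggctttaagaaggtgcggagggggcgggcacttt
The letters searched were TGACGTCA (the cyclic AMP response element, in 1.55% of 32851 promoter stretches of this length), its part TGACG (17.8%), TGANTCA (the AP-1 site, 6.75%), GCGTGGGCG (the Egr site, 0.536%), CACGTG (an E-box, 6.02%) and TATAAA (the TATA box, 12.4%). Gad2 held 1 match to TGACG beginning 33 bases before its start, Gad1 held 1 to TATAAA, Reln held 1 to CACGTG, and the Lamp5 stretch held none of the 6. Reln had the stretch richest in CpG, with 37 CpG dinucleotides and 80% G and C, against 3 and 49.2% in Lamp5, 17 and 58% in Gad1 and 13 and 64% in Gad2. The median of all promoter stretches was 6 CpG and 52.4% G and C. These matches describe the sequence only. The table held 8 of the 9 genes.

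The libraries held 13552516 to 17906994 counted reads. In all, 4 libraries stood apart in genes that mark the cerebellum, a tissue that lies behind the visual cortex. The summed normalized count of 10 cerebellar genes was 27608 to 88101 in dark mice 1 and 6, psilocybin-dark mouse 12 and light mouse 18, and 2909 to 6275 in the other 20 mice. The 5 genes listed for Cajal-Retzius cells were Trp73, Lhx5, Nhlh2, Ebf3 and Lhx1. They were summed at 385 to 1387 in the same 4 mice, where the other mice reached at most 169.9. Whether these reads came from Cajal-Retzius cells or from cerebellar tissue was not tested. Hippocampal genes were higher in the dark group, with a sum over 10 genes of 6028 to 10245 against 2839 to 5967 in the 18 other mice. Genes of cortical glutamatergic neurons were lower there, at a median sum of 80024 over 12 genes against 101102 in the light group. The psilocybin-dark mice, also kept in the dark, had a hippocampal sum of 2870 to 5967 and a glutamatergic median of 100104. The dark group was the only one without light or psilocybin. In it, the lack of both and the makeup of the dissected tissue cannot be told apart from these values. All 6 early response genes were called higher than in the dark group in each of the other 3 groups.

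The levels of the 9 genes spanned a wide range. In reads per kilobase of canonical transcript, scaled for library size (RPKM), Gad1 was at 94.0 ± 3.54 (SD, n = 6) in the light group and Lamp5 at 92.5 ± 16.5, with overlapping ranges. Slc32a1 followed at 38.7 ± 2.76 RPKM, Gad2 at 29.3 ± 2.09 and Pvalb at 22.2 ± 13.1. The ranges of Gad2 and Pvalb overlapped. Reln was at 6.59 ± 1.93 RPKM, Adarb2 at 2.10 ± 0.223, Ndnf at 1.09 ± 0.271 and Sncg at 0.197 ± 0.0590, with no overlap between these neighbours. In the dark group Lamp5 was at 25.3 ± 11.0 RPKM, below the means of Gad1, Slc32a1 and Gad2. Pvalb was at 34.0 ± 45.1 RPKM there, a mean carried by mice 1 and 6, and its range overlapped that of Lamp5, whose median was the higher (26.1 against 9.52 RPKM). In both psilocybin groups Lamp5 had the highest mean of the 9, at 98.4 ± 26.2 and 108.5 ± 19.0 RPKM, and its range overlapped that of Gad1.

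**Figure D1:**
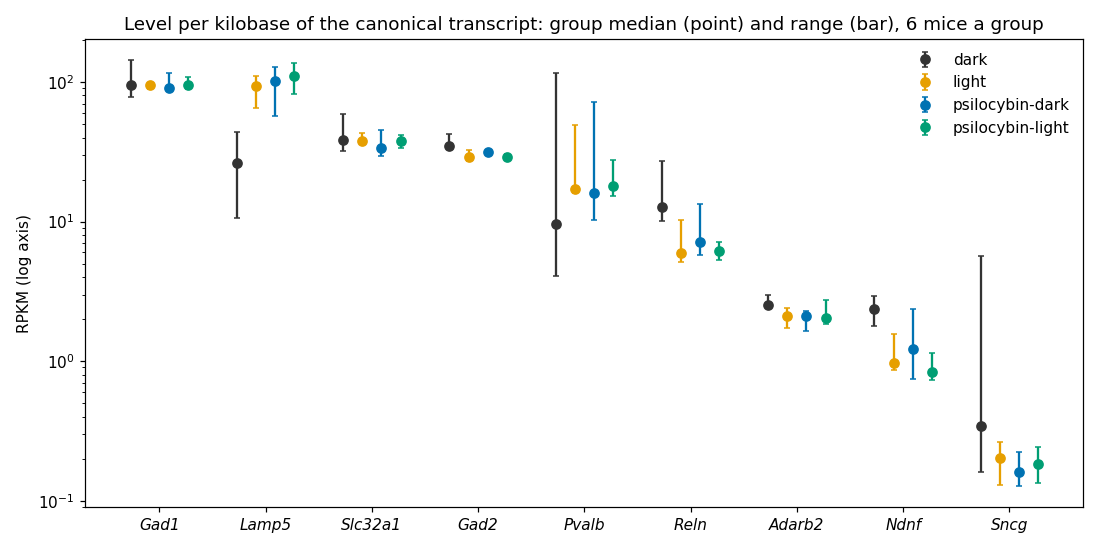
Level of each gene in RPKM (log axis) by group, with the median as a point and the range over 6 mice as a bar, in the order of the light group. Lamp5 has a median of 26.1 RPKM in the dark group and a bar that overlaps that of Gad1 in the other 3, and Pvalb has a median of 9.52 RPKM in the dark group and a bar that runs from 4.06 to 115.2 RPKM.

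Against the dark group, Lamp5 rose and Gad2, Sncg, Ndnf, Reln and Adarb2 fell in all 3 of the other groups, whereas Gad1, Slc32a1 and Pvalb did not pass the test in any. The test was edgeR's quasi-likelihood test over all 24 libraries with Benjamini-Hochberg adjustment over all genes, and a gene with an adjusted p under 0.05 is called. In light against dark, 6 of 9 genes (66.7%) were called, where 31.9% of all genes were. Of these, 1 was higher (15.4% of all genes) and 5 were lower (16.5% of all genes). In psilocybin-dark against dark the counts were again 6, 1 and 5, against 24.7%, 11.9% and 12.8% of all genes. In psilocybin-light against dark they were 6, 1 and 5, against 38.4%, 17.4% and 21.0%. The median log2 fold change of the 9 genes was −0.30, −0.34 and −0.31 in these comparisons, and that of all genes was −0.01, −0.02 and −0.02. The 3 comparisons share the same 6 dark mice and are not independent of one another. Sncg reached the 30 counts needed for testing in the dark group alone, so its calls as lower are not independent of that filter. The ranges of the groups did not overlap for 4 of the 9 genes in light against dark, for 3 in psilocybin-dark against dark and for 4 in psilocybin-light against dark. Among all genes this held for 10.0%, 5.58% and 15.8%.

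**Figure D2:**
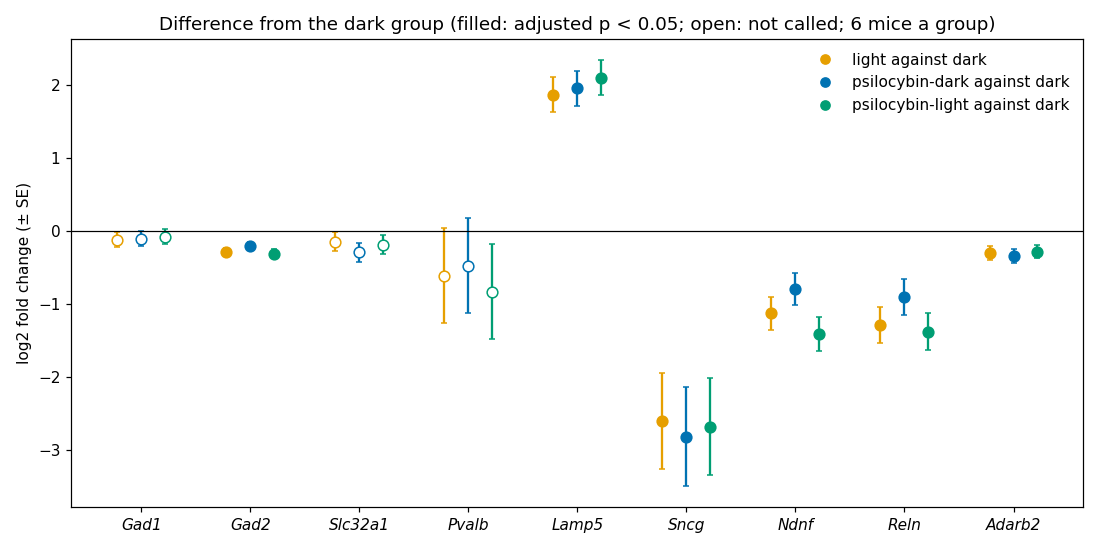
Log2 fold change of each gene from the dark group, with SE, for the light, psilocybin-dark and psilocybin-light groups (6 mice each). Filled points passed an adjusted p of 0.05, and Lamp5 lies near 2 while the 5 called genes below 0 range from about −0.2 in Gad2 to −2.8 in Sncg.

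Of the genes for GABA synthesis and packaging, Gad2 alone was called against dark with all mice, at 1.15- to 1.24-fold lower. Gad1, which encodes the decarboxylase that supplies most of the GABA in neurons, had a normalized count (scaled to the mean library size) with a lowest, median and highest value of 5241, 6330.0 and 9553 in the dark group. In the light group these were 5926, 6299.8 and 6607, in the psilocybin-dark group 5829.5, 6079 and 7687, and in the psilocybin-light group 5892, 6384 and 7281. All groups overlapped, and the highest dark values were those of mice 6 and 1, which were also high in cerebellar genes. The log2 fold change from dark was −0.12 ± 0.10 (SE) in light, −0.11 ± 0.10 in psilocybin-dark and −0.08 ± 0.10 in psilocybin-light, with adjusted p of 0.387, 0.478 and 0.568. Without dark mouse 6 it was 0.01, 0.02 and 0.05.

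Gad2, which encodes the decarboxylase associated with synaptic vesicles, was the member of the pair that passed the test. It was at 3236, 3384 and 4166 (lowest, median, highest) in the dark group and at 2659, 2851 and 3185 in the light group. The psilocybin-dark group was at 2952, 3079 and 3167 and the psilocybin-light group at 2705, 2845 and 2968, so that each of the 18 mice lay below every dark mouse. Gad2 was 1.22-fold lower in light (log2 fold change −0.29 ± 0.06, adjusted p = 0.000399), 1.15-fold lower in psilocybin-dark (−0.20 ± 0.06, adjusted p = 0.0111, and 0.0617 in a fit of only the groups compared) and 1.24-fold lower in psilocybin-light (−0.31 ± 0.06, adjusted p = 0.000165). The ratio of Gad2 to Gad1 reads within a library had a median of 0.552 in the dark group and 0.456, 0.492 and 0.449 in the light, psilocybin-dark and psilocybin-light groups. The dark range of this ratio, 0.361 to 0.633, covered the other groups, and its lowest value was that of mouse 6.

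Slc32a1, the vesicular transporter of GABA, was at 1487, 1761 and 2732 in the dark group, at 1655, 1741 and 1978 in light, at 1372, 1544 and 2102 in psilocybin-dark and at 1556, 1734 and 1942 in psilocybin-light. The groups overlapped throughout, and the 4 mice with high cerebellar genes had the 4 highest values. The log2 fold change from dark was −0.14 ± 0.13 in light, −0.29 ± 0.13 in psilocybin-dark and −0.19 ± 0.13 in psilocybin-light, and none was called (adjusted p of 0.421, 0.103 and 0.271). In psilocybin-dark it passed the test when dark mouse 2, dark mouse 3 or psilocybin-dark mouse 12 was left out, with adjusted p of 0.0427, 0.0450 and 0.0285.

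**Figure D3:**
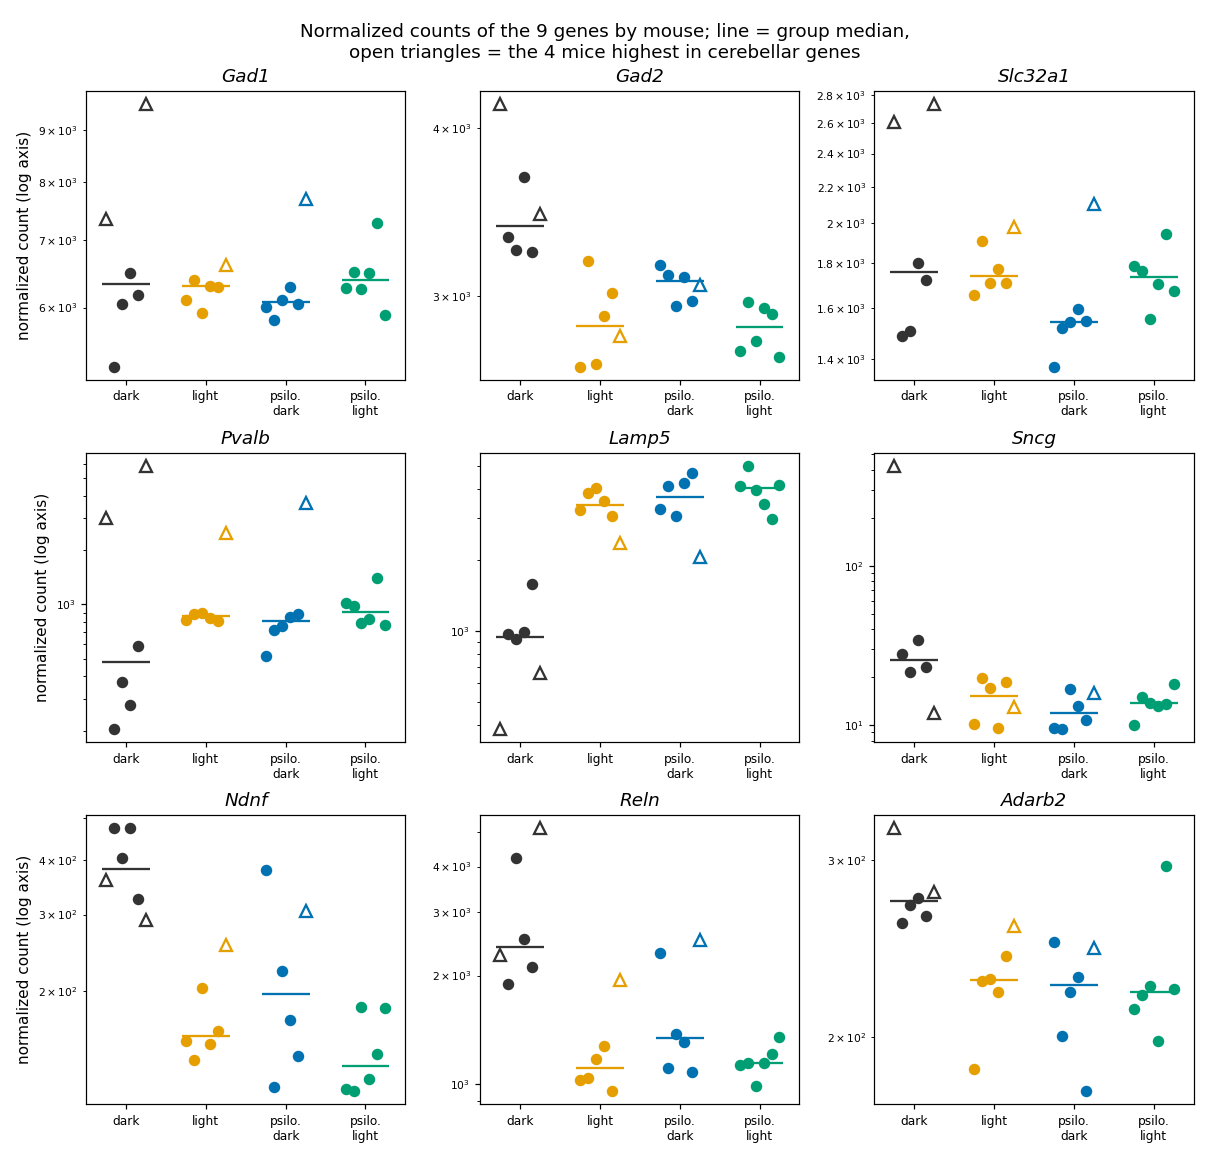
Normalized count (log axis) of each of the 9 genes in each mouse by group, with the group median as a line and the 4 mice highest in cerebellar genes as open triangles. All dark mice lie below the other groups for Lamp5 and above them for Gad2, and the triangles are the 4 highest points for Pvalb and Slc32a1.

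Pvalb, a calcium buffer of fast-spiking cells, gave a different answer depending on the mice used. In the dark group it was at 205, 481 and 5811, a span carried by mice 6 (5811) and 1 (3024), while dark mice 2 to 5 lay between 205 and 591. The light group was at 809.8, 864 and 2471, the psilocybin-dark group at 521, 805 and 3652 and the psilocybin-light group at 771, 904 and 1399. The 4 mice with high cerebellar genes had the 4 highest values, 2471 to 5811, and the other 20 mice reached at most 1399. With all mice the log2 fold change from dark was −0.61 ± 0.65 in light, −0.47 ± 0.65 in psilocybin-dark and −0.83 ± 0.65 in psilocybin-light (adjusted p of 0.506, 0.640 and 0.335). Without the 4 mice, Pvalb was called higher than in the 4 remaining dark mice, by 1.24 (adjusted p = 0.000160), 1.05 (adjusted p = 0.000968) and 1.43 (adjusted p = 2.04e-05). In those 20 mice the dark values were 205 to 591 and the others 521 to 1399, which overlapped. Without dark mice 2 to 5, the dark group held only mice 1 and 6, the highest dark mice in Pvalb. Pvalb was then called lower, by −1.98, −1.84 and −2.19, a direction fixed by that choice of mice. Both sets of mice were chosen after seeing the data. With the cerebellar list's mean as a term in the model it was called higher, by 1.42, 1.09 and 1.58.

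**Figure D4:**
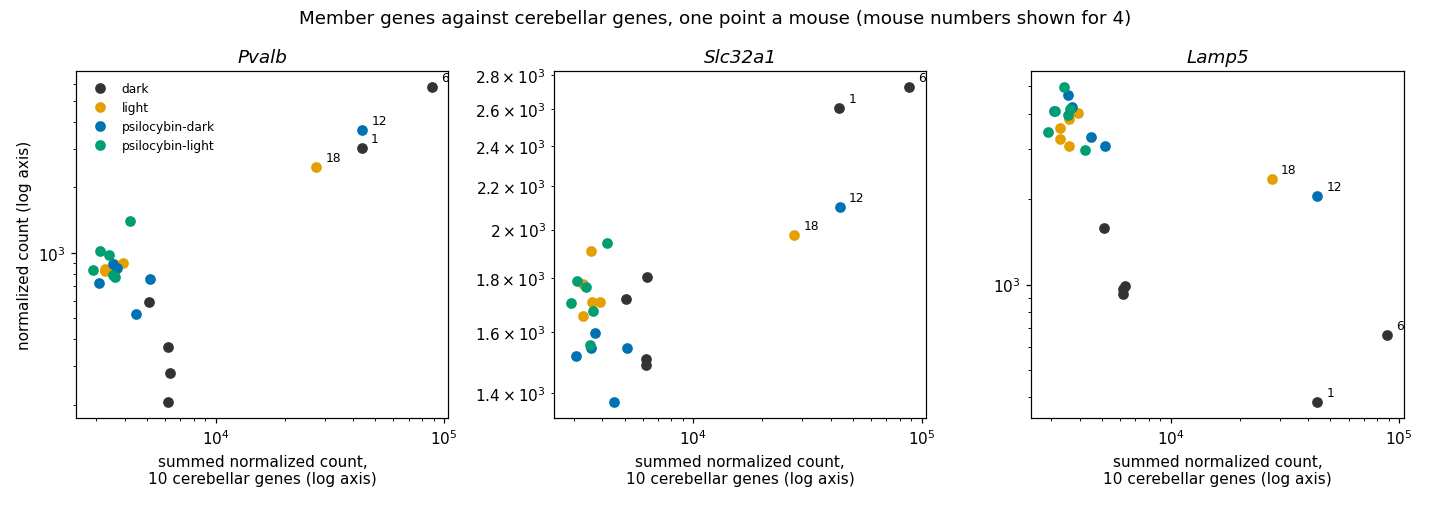
Normalized counts of Pvalb, Slc32a1 and Lamp5 against the summed normalized count of 10 cerebellar genes, 1 point a mouse, log axes, with numbers for the 4 mice highest in those genes. These 4 mice are the highest in Pvalb and Slc32a1, and the dark mice are the lowest in Lamp5 whether or not cerebellar genes are high.

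Lamp5, which encodes a neuronal relative of the lysosome-associated membrane proteins, showed the widest separation of the groups. It was at 385, 946 and 1584 in the dark group, at 2363, 3407 and 4024 in light, at 2058, 3698 and 4660.0 in psilocybin-dark and at 2969, 4024 and 4985 in psilocybin-light. No mouse of the 3 other groups was as low as the highest dark mouse. Lamp5 was 3.65-fold higher in light (log2 fold change 1.87 ± 0.24, adjusted p = 7.42e-06), 3.89-fold higher in psilocybin-dark (1.96 ± 0.24, adjusted p = 1.25e-05) and 4.28-fold higher in psilocybin-light (2.10 ± 0.24, adjusted p = 1.22e-06). Within each group the mice high in cerebellar genes were the lowest in Lamp5: dark mice 1 and 6, light mouse 18 and psilocybin-dark mouse 12. Without these 4 mice the dark group was at 924 to 1584 and the other 16 mice at 2969 to 4985, with log2 fold changes of 1.67, 1.79 and 1.83. Genes of glutamatergic neurons moved in the same direction as Lamp5, as described below, and their part in the difference was not tested.

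Sncg, which encodes gamma-synuclein, was the least abundant of the 9 and the one most dependent on a single mouse. It reached the 30 reads needed for testing only in dark mice 1, 2 and 4 (471, 30 and 36 reads). Outside the dark group it had at most 22 reads. In the dark group it was at 11.9, 25.5 and 421, and 78.0% of the group's sum came from mouse 1, the next highest being at 34.2. The light group was at 9.59, 15.1 and 19.8, the psilocybin-dark group at 9.48, 11.9 and 16.7 and the psilocybin-light group at 10.0, 13.7 and 18.1. All overlapped the dark group through dark mouse 6 (11.9). The log2 fold change from dark was −2.60 ± 0.66 in light, −2.82 ± 0.68 in psilocybin-dark and −2.68 ± 0.67 in psilocybin-light (adjusted p of 0.00443, 0.00398 and 0.00293). Without dark mouse 1 it was −0.68, −0.89 and −0.75, which still passed (adjusted p of 0.0411, 0.0132 and 0.0218). With the mean of the cerebellar list in the model it was −1.44, −1.92 and −1.33 and was not called (adjusted p of 0.136, 0.0512 and 0.182), and in a fit of only the groups compared it was not called in light or psilocybin-dark (adjusted p of 0.0521 and 0.0548). Mouse 1 was also the highest in the cholinergic genes Slc5a7, at 715, and Chat, at 191, where no other mouse exceeded 25.05 and 12.8. Mmrn2, which shares exon bases with Sncg on the other strand, was at 114.5 in mouse 1 and at 60.8 to 108.1 in the rest.

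Ndnf and Reln, both secreted proteins of layer 1 interneurons, fell in all 3 comparisons. Ndnf, a neurotrophic factor, was at 292, 383 and 473 in the dark group, at 139, 158 and 255 in light, at 121, 197 and 380.3 in psilocybin-dark and at 118, 135 and 184 in psilocybin-light. The dark group did not overlap the light or psilocybin-light group, whereas psilocybin-dark mice 7 (380.3) and 12 (305) lay within the dark range. Ndnf was 2.19-fold lower in light (log2 fold change −1.13 ± 0.23, adjusted p = 0.000656), 1.73-fold lower in psilocybin-dark (−0.79 ± 0.22, adjusted p = 0.0125) and 2.65-fold lower in psilocybin-light (−1.41 ± 0.23, adjusted p = 5.62e-05). Without dark mice 2 to 5, the psilocybin-dark difference was −0.54 and was not called (adjusted p = 0.178), and in a fit of only the groups compared it was −0.80 and was not called (adjusted p = 0.0589).

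Reln, the extracellular protein that guides the layering of the cortex and is made by interneurons in the adult, was at 1896, 2400.4 and 5101 in the dark group. It was at 959.6, 1108 and 1941 in light, at 1083, 1345 and 2508 in psilocybin-dark and at 992, 1147 and 1350.2 in psilocybin-light. The psilocybin-light group lay wholly below the dark group, and the other 2 overlapped it through light mouse 18 and psilocybin-dark mice 7 and 12. Reln was 2.44-fold lower in light (log2 fold change −1.29 ± 0.25, adjusted p = 0.000466), 1.87-fold lower in psilocybin-dark (−0.90 ± 0.25, adjusted p = 0.0101) and 2.60-fold lower in psilocybin-light (−1.38 ± 0.25, adjusted p = 0.000173). The values without the 4 mice with high cerebellar genes were −1.29, −0.91 and −1.20, all called. In a fit of only the groups compared, the psilocybin-dark difference was −0.91 and was not called (adjusted p = 0.0621).

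Adarb2, a relative of the RNA-editing enzymes, was at 259.7, 273 and 323 in the dark group, at 186, 228 and 258 in light, at 177, 226 and 249 in psilocybin-dark and at 198, 222 and 296 in psilocybin-light. The dark group overlapped the psilocybin-light group alone, through psilocybin-light mouse 23 (296). Adarb2 was 1.23-fold lower in light (log2 fold change −0.30 ± 0.10, adjusted p = 0.0208), 1.26-fold lower in psilocybin-dark (−0.34 ± 0.10, adjusted p = 0.0124) and 1.21-fold lower in psilocybin-light (−0.28 ± 0.10, adjusted p = 0.0235). The call was lost in light without dark mouse 1 or light mouse 13 (adjusted p of 0.0537 and 0.0565). It was lost in psilocybin-light without dark mouse 1 or any of psilocybin-light mice 19, 20, 22 and 24, with adjusted p of 0.050026 (without mouse 24) to 0.0684 (without dark mouse 1). Without dark mice 1 and 6 together, Adarb2 was at −0.23, −0.27 and −0.21 and was called in none of the 3 (adjusted p of 0.0904, 0.0502 and 0.110). With the mean of the cerebellar list in the model it was not called in light or psilocybin-light (adjusted p of 0.102 and 0.216), nor in psilocybin-light without the 4 mice highest in cerebellar genes (adjusted p = 0.0841).

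The calls against the dark group also depended on whether hippocampal genes were allowed for. With the mean of the hippocampal list as a term in the model, Reln alone of the 9 was called in light (−1.46, adjusted p = 0.0156) and in psilocybin-light (−1.59, adjusted p = 0.0135), and none in psilocybin-dark, where Reln was at −1.07 (adjusted p = 0.219). Lamp5 was then at 1.21, 1.28 and 1.34, with adjusted p of 0.0903, 0.246 and 0.0853, and Sncg changed sign, at 1.05, 0.82 and 1.45, not called. In the same model 792 of all 14464 genes were called in light against dark, 0 in psilocybin-dark and 959 in psilocybin-light, where 4611, 3575 and 5551 were called without the term. The list and the dark group cannot be told apart well, since 5 of 6 dark mice had a higher mean log2 CPM over these genes than any other mouse.

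**Figure D5:**
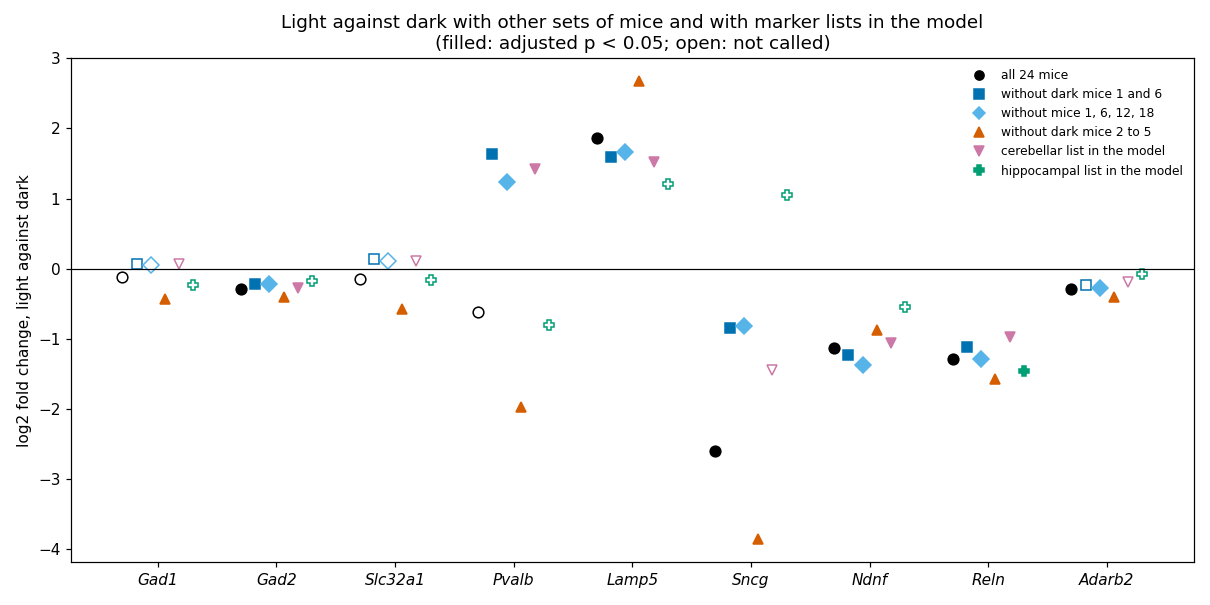
Log2 fold change of each gene in light against dark with all mice, without 3 sets of mice, and with the mean of the cerebellar or hippocampal list in the model. Filled points were called, and Pvalb takes both signs while Gad2, Ndnf, Reln and Adarb2 stay below 0 and Lamp5 above it under these 6 settings.

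Between the 3 groups that received light, psilocybin or both, edgeR called 0 of the 9 genes and all ranges overlapped. In psilocybin-light against light, 0 of 9 were called by edgeR where 0.608% of all genes were, 0 had an unadjusted p under 0.05, and 0 were called by DESeq2. Of all 14464 genes, 1402 had an unadjusted p under 0.05 and DESeq2 called 191. The fold changes lay between −0.28 (Ndnf) and 0.23 (Lamp5) on the log2 scale. In psilocybin-light against psilocybin-dark, 0 of 9 were called against 6.38% of all genes, 1 had an unadjusted p under 0.05, and DESeq2 called 0, with 2873 and 1197 of all genes. The 1 gene was Ndnf, at −0.61 ± 0.23 (adjusted p = 0.121), followed by Reln at −0.47 ± 0.25 (adjusted p = 0.296). In psilocybin-dark against light, 0 of 9 were called against 0.456% of all genes, 0 had an unadjusted p under 0.05, and DESeq2 called 0, with 2076 and 405 of all genes. Here Reln was at 0.38 ± 0.25 and Ndnf at 0.33 ± 0.23. Slc32a1 was called in these last 2 comparisons once the 4 mice with high cerebellar genes were left out, at 0.21 (adjusted p = 0.0187) and −0.21 (adjusted p = 0.0459).

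The interaction compares the effect of psilocybin in the light with its effect in the dark. Of the 9 genes, 1 was called, where 8.75% of all genes were. Lamp5 was 0.23 ± 0.23 higher on the log2 scale with psilocybin in the light and 1.96 ± 0.24 higher with psilocybin in the dark, a difference of −1.73 ± 0.33 (adjusted p = 0.00377). The call held without each mouse in turn, with differences of −1.95 to −1.56. It was lost with the mean of the hippocampal list in the model (−1.15, adjusted p = 0.311), where 0 of all 14464 genes were called. The other 8 genes were not called. Sncg was at 2.74 ± 0.99 (adjusted p = 0.0839), and Adarb2, Gad2 and Reln were at 0.35 ± 0.14, 0.18 ± 0.08 and 0.81 ± 0.35, with adjusted p of 0.104, 0.145 and 0.146.

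The genes of GABA handling and of the interneuron classes were divided in direction, as all genes were. Of all genes, 15.4% were higher and 16.5% lower in light, 11.9% and 12.8% in psilocybin-dark, and 17.4% and 21.0% in psilocybin-light. These shares are the background for the list counts here and below, and no list was tested as a set. Among 9 genes of GABA uptake and breakdown, 1 was higher and 4 were lower in light, 1 and 3 in psilocybin-dark, and 1 and 4 in psilocybin-light, with a median log2 fold change of −0.18 in light. Abat, the transaminase that degrades GABA, had log2 fold changes of −0.34, −0.35 and −0.32, all called, and Slc6a11, an astrocyte transporter of GABA, had −0.65, −0.79 and −0.88, all called. Gls2, a glutaminase, rose by 0.75, 0.55 and 0.91. Among 15 transcription factors of interneurons, 2 were higher and 1 lower in light, and 2 and 2 in both psilocybin groups. Nr2f2, a factor of caudal ganglionic eminence cells that is also found outside neurons, was at −2.51, −2.13 and −2.86, all called. Satb1, a factor of medial ganglionic eminence cells, was at 0.67 in light, 0.77 in psilocybin-dark and 0.56 in psilocybin-light, all called.

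Of 10 companions of Pvalb, 1 was higher and 3 were lower in light, 0 and 3 in psilocybin-dark, and 1 and 2 in psilocybin-light, beside a Pvalb that was not called. Gpr149 was at −1.36, −1.55 and −1.77 and Tmem132c at −0.65, −0.55 and −0.75, all called. Outside the dark group Gpr149 had a normalized count of at most 17.2, against up to 80.5 in that group. It reached the 30 counts needed for testing in the dark group alone. The neuropeptide gene Tac1 was at −0.70 and −0.74, both called, and at −0.47 in psilocybin-light (adjusted p = 0.136). Of 10 companions of Lamp5, Sncg and layer 1 cells, 3 were higher and 4 lower in light, 2 and 2 in psilocybin-dark, and 4 and 4 in psilocybin-light, with a median of 0.11 in light where Lamp5 itself was at 1.87. Cnr1, the cannabinoid receptor of cholecystokinin-containing terminals, was at −0.92, −0.64 and −1.16, and the keratin gene Krt73 at −1.87, −1.67 and −2.06, all called. Sv2c, a synaptic vesicle protein, was at −0.92 and −1.24 in light and psilocybin-light, both called, and at −0.69 in psilocybin-dark (adjusted p = 0.134).

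Of 9 genes of the Sst class, 2 were higher and 3 lower in each of the 3 comparisons. Pdyn, the precursor of dynorphins, rose by 2.56, 2.34 and 2.63. Nos1, the neuronal nitric oxide synthase, was at −2.04, −1.68 and −2.11, all called. Chodl, a marker of the long-range cells of this class, was at −1.76, −1.68 and −1.90, all called. Outside the dark group Chodl had a normalized count of at most 17.6, against up to 92.1 in that group. It too reached 30 counts in the dark group alone. Of 9 genes of the Vip class, 2 were higher and 2 lower in light and in psilocybin-dark, and 2 and 3 in psilocybin-light. Crh, the corticotropin-releasing hormone, rose by 1.37, 1.67 and 1.53. Penk, the precursor of enkephalins, was at −1.57, −1.57 and −1.65, all called. Slc5a7, the choline transporter, was at −3.02, −2.93 and −3.30, all called, through dark mouse 1, described above. It reached the 30 counts needed for testing in that mouse alone, so its calls as lower are not independent of that filter. Slc5a7 is among the genes of this class counted as lower in each comparison.

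Markers of other cells and tissues differed from the dark group in some lists and not in others. Of 12 genes of cortical glutamatergic neurons, 7, 7 and 8 were higher in light, psilocybin-dark and psilocybin-light and 0 were lower, with Emx1 at 1.48 and Cux2 at 1.34 in light. Of the 10 hippocampal genes tested, 6, 4 and 7 were lower and 0 higher, led by Fibcd1 (−3.51 in light), Spink8 (−2.52) and Npy2r (−1.95). Of 10 genes listed for the cerebellum, 1, 0 and 9 were lower. The 1 called in light was Calb1, at −0.94, where the median of the list was −2.14. Of 5 genes listed for Cajal-Retzius cells, 2, 1 and 4 were lower, with Nhlh2 at −3.07 and Trp73 at −2.30. No gene of these 4 lists was at 0 in all mice of a group. The psilocybin-light group held none of the 4 mice high in cerebellar genes. Of 7 striatal genes, 2, 1 and 2 were higher and 0, 1 and 0 lower (Adora2a 0.59 in light), and of 6 thalamic genes 0, 0 and 2 were lower. Of 5 astrocyte genes, 1 was higher in each comparison and 2, 2 and 3 were lower (Aqp4 −0.78, Aldh1l1 0.39, Gja1 −0.36). Of 5 oligodendrocyte genes, 0 were called by edgeR or DESeq2 in each comparison, with 0, 0 and 1 at an unadjusted p under 0.05. Of 5 microglial genes, 2, 0 and 1 were higher (C1qa 0.35, Csf1r 0.27). Of 7 vascular, meningeal and choroid plexus genes, 1, 0 and 0 were higher and 1 was lower in each. In light, Ttr of the choroid plexus was at 3.87 and Dcn at −3.38. Arc, Npas4 and Egr1 led the early response genes at 2.83, 2.37 and 1.88 in light. The part of these genes' tissues in the differences of the 9 genes was not tested.

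Genes whose levels ran most nearly parallel to each member were ranked by Pearson's r of log2 CPM over the 24 mice among 12393 genes, with r of the deviations from the group means beside it. The mice share groups and tissue composition, so these values are a description. For Lamp5 they were Smim43 (r = 0.987, within groups 0.940), Arpp19 (0.984, 0.958) and Pip4k2c (0.981, 0.904). For Pvalb they were Hsd11b1 (0.967, 0.976), H2-D1 (0.963, 0.963) and Chn2 (0.962, 0.966), and for Slc32a1 they were Ccdc92 (0.956, 0.960), Hibadh (0.918, 0.914) and Kcnip1 (0.917, 0.942). Gad1 ran with Cerk (0.909, 0.922), G6pdx (0.903, 0.918) and Nipsnap2 (0.899, 0.913). Gad2 ran with Prkaa1 (0.900, 0.736), Vat1l (0.883, 0.711) and Peg3 (0.878, 0.685). Ndnf ran with Nr2f2 (0.944, 0.851), Lamb1 (0.942, 0.831) and Camk2d (0.941, 0.822), and Reln with Angpt1 (0.943, 0.853), Ust (0.927, 0.815) and Tenm1 (0.922, 0.810). Adarb2 ran with Cyp2j9 (0.854, 0.779), Glud1 (0.850, 0.770) and Plscr4 (0.833, 0.724). Sncg had too low a mean count to be ranked. No member was among the 3 nearest genes of another member.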

How the data were processed

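RNA of the visual cortex was sequenced from 24 mice. The authors extracted poly-A RNA, aligned cutadapt-trimmed reads to GRCm39 by STAR and used htseq-count with Ensembl annotation (the labels name mm10 as the build). The deposited values are these raw counts. Groups of 6 followed the headings of the study's count table. Testing was limited to genes reaching 30 counts in some library (14464 of 55414) in 1 edgeR 4.0.16 quasi-likelihood fit with TMM scaling, in R 4.3.3, and p-values were adjusted over all of them. Normalization divided counts by the TMM library size relative to its mean, log2 CPM used a prior count of 2, and RPKM used GENCODE canonical transcript lengths. The fit was tested on simulated counts with known changes. Alternatives were DESeq2 1.42.0, its size factors, other filters, other sets of libraries, the mean log2 CPM of 2 lists as a covariate and the labels' light exposure. The libraries differed from one another by more than sampling noise.

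The 9 genes and the 17 lists were chosen with earlier results of these data known. Beside the 9, up to 3 called genes of each list were named by their fold change in light against dark, and for each member the 3 genes with the highest r among those with a mean count of 50 or more. Some genes this rule names are not reported here. Counts of 13552516 to 17906994 per library limit precision for Sncg most, at 8 to 471 reads. Littermates were allotted to groups at random per the methods, and where mice share a litter, p-values do not allow for it.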

Additional observations from a re-analysis of the deposited data

Results flagged for a closer look

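Among 36 sets of 6 mice (9 genes in 4 groups), 8 had a highest mouse set apart from the rest by Dixon's test, which flags about 1 set in 20 by chance. In the psilocybin-dark group mouse 12 stood apart for Pvalb (3652), Gad1 (7687) and Slc32a1 (2102), and in the light group mouse 18 stood apart for Pvalb (2471) and Reln (1941). Both mice were also high in cerebellar genes. In the dark group mouse 1 stood apart for Sncg (421) and Adarb2 (323), and it was high in cerebellar genes as well. In the psilocybin-light group mouse 23 stood apart for Adarb2 (296). That mouse also had the highest sums of its group for the cerebellar list (4204) and the thalamic list (3694). All are normalized counts, and no set had a lowest mouse set apart by this test.

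The effect of psilocybin on Lamp5 differed between mice in the light and mice in the dark, with an interaction of −1.73 ± 0.33 on the log2 scale (adjusted p = 0.00377, edgeR). With the mean of the hippocampal list in the model it was −1.15 and was not called (adjusted p = 0.311). Lamp5 had a median normalized count of 946 in the dark group and of 3407, 3698 and 4024 in the light, psilocybin-dark and psilocybin-light groups.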

How the results depend on the processing

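DESeq2, its size factors, the filterByExpr filter and no filter kept the direction and the call of all 9 genes in the 3 comparisons with dark, and of Lamp5 in the interaction. With the light exposure of the sample labels, light against dark changed sign throughout, to 0.12 for Gad1, 0.29 for Gad2, 0.14 for Slc32a1, 0.61 for Pvalb, −1.87 for Lamp5, 2.60 for Sncg, 1.13 for Ndnf, 1.29 for Reln and 0.30 for Adarb2, and Lamp5 in the interaction to 1.73. Under those labels, psilocybin-dark against dark put Gad1 at 0.041 and Adarb2 at 0.015, and psilocybin-light against dark put Gad1 at 0.013, Gad2 at 0.091, Pvalb at 0.14, Ndnf at 0.33 and Reln at 0.38. Calls under those labels were 0 in these 2 comparisons, 6 in psilocybin-light against light and 6 in psilocybin-dark against light. Fitting only the groups compared gave 2 calls of 9 in psilocybin-dark against dark (Gad2, Sncg, Ndnf and Reln were lost), lost Sncg in light, and gave 1 in psilocybin-light against psilocybin-dark (Gad2). With the hippocampal list as a covariate the calls were 1 in light, 0 in psilocybin-dark, 1 in psilocybin-light and 0 in the interaction, and Sncg turned to 1.05, 0.82 and 1.45.

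Dark mice 1 and 6 were the highest of their group in Gad1, Slc32a1 and Pvalb, so leaving them out lowers the dark level. Light mouse 18 and psilocybin-dark mouse 12 stayed in that fit. Without dark mice 1 and 6, the differences in light, psilocybin-dark and psilocybin-light were 0.074, 0.086 and 0.12 for Gad1 and 1.64, 1.78 and 1.43 for Pvalb (all 3 called), and those of Slc32a1 were 0.14 in light and 0.10 in psilocybin-light. With the cerebellar list as a covariate they were 0.062, 0.033 and 0.14 for Gad1, 1.42, 1.09 and 1.58 for Pvalb, and 0.11 and 0.12 for Slc32a1. Without the 4 mice highest in cerebellar genes, a choice made after seeing the data, they were 0.053, 0.013 and 0.12 for Gad1, 1.24, 1.05 and 1.43 for Pvalb, and 0.10 and 0.10 for Slc32a1, and 1 gene, Slc32a1, was called in psilocybin-light against psilocybin-dark and in psilocybin-dark against light. Leaving out dark mice 2 to 5, also chosen after seeing the data, kept only dark mice 1 and 6. Both were high in cerebellar genes, and Gad1, Slc32a1 and Pvalb were then called lower than dark in all 3 groups. Both were also the highest dark mice in each of these genes, so that direction was fixed by the choice of mice. The interaction gave 2 calls by DESeq2 (Lamp5 and Sncg), 3 without dark mice 1 and 6, 3 without light mouse 18 and psilocybin-dark mouse 12, 7 without dark mice 2 to 5 and 5 without the 4 mice, where 1665 of 14464, 3078 of 14281, 2056 of 14427, 4016 of 14350.0 and 3810.0 of 14135 of all genes were called, against 1266 of 14464 by edgeR with all mice. Why these values moved was not tested.

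Leaving out each mouse in turn gave 5 to 6 calls in light, 6 to 7 in psilocybin-dark, 5 to 6 in psilocybin-light and 1 to 2 in the interaction (2 without dark mouse 6, Lamp5 and Sncg), and 0 in the other 3 comparisons. Gad1 ranged from −0.18 to 0.0082, −0.17 to 0.019 and −0.14 to 0.051, and Pvalb from −1.01 to 0.33, −1.20 to 0.46 and −1.06 to 0.11, each positive only without dark mouse 6. No paired analysis was possible because the library numbers differ between all groups. With 6 mice a group and counts of 8 to 36 outside dark mouse 1, differences in Sncg are the least precise.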
